A study of Danio rerio with 2 samples.

Results

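Among sorted endothelial cells from the zebrafish tail, 51 cells combined a high level of aqp8a.1, a gene of an aquaporin water channel, with a summed level of gpm6aa, cxcr4b and igsf5b above a threshold. They were 48 of 2030 kept cells in the library labelled isl1-derived and 3 of 709 in the library labelled other, so 51 of 2739 in all. Cells were chosen by thresholds on their own unique molecular identifiers (UMIs, which count captured RNA molecules), written per 10000 UMIs of the cell. An endothelial cell had at least 10 per 10000 of cdh5, tie1, egfl7 and clec14a together and fewer than 3 UMIs of the blood progenitor genes myb, runx1 and gata2b together. A member cell also had at least 80 per 10000 of aqp8a.1, less than 10 per 10000 of esm1, and at least 5 per 10000 of gpm6aa, cxcr4b and igsf5b summed. These 12 genes chose the cells, so their levels in the member cells are given as description.

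Arterial endothelial cells are known to keep high Notch signalling, and to display the ligand ephrin-B2, while venous cells carry its receptor EphB4 and the transcription factor Nr2f2. In the tail of the zebrafish embryo the dorsal aorta runs above a caudal vein plexus whose endothelium takes up macromolecules through scavenger receptors such as Stab2 and Mrc1a. cxcr4b encodes a receptor for the chemokine Cxcl12, whose signalling through the related receptor Cxcr4a is known to guide growing arterial vessels in zebrafish. gpm6aa encodes a membrane glycoprotein of the proteolipid family, best known from neurons, and igsf5b encodes an adhesion protein of the immunoglobulin superfamily.

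The embryos were of strain AB, carried TgBAC(isl1:TagRFP) and Tg(dab2:EGFP), and were 48 hours old after fertilization, and their tails behind the end of the yolk were dissociated. Cells with both fluorescent proteins make up the library labelled isl1-derived, and cells with EGFP alone the library labelled other. Both groups thus carry both reporters, and each is 1 droplet library of 3′ UMI counts from dissociated tails, whose number of embryos was not given in the sources used here. With 1 library per group there is no replicate check: no test between conditions was made, and every interval below is a 95% interval that covers counting error only.

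The kept cells held 26831198 UMIs in the library labelled isl1-derived (median 9807.5 per cell) and 5683798 in the library labelled other (median 6645), and the libraries shared 0 cell barcodes. The reporter RNA went against the labels. Summed over kept cells and scaled to 1000000 UMIs (CPM), the library labelled isl1-derived held 2.68 CPM of TagRFP, 1.94 CPM of isl1 and 637 CPM of GFP. The same features reached 136 CPM, 136 CPM and 1520.6 CPM in the library labelled other. The libraries are therefore named by their labels throughout, nothing below rests on which fluorescence they had, and the results are from the 48 cells of the library labelled isl1-derived unless the other library is named.

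The 48 member cells were 2.36% of the kept cells (exact binomial interval 1.75 to 3.12%), 3.68% of the 1305 endothelial cells (2.72 to 4.85%) and 12.5% of the 383 aqp8a.1-high endothelial cells (9.39 to 16.3%). In the library labelled other the 3 member cells were 0.423% of the kept cells (0.0873 to 1.23%) and 4.84% of the 62 aqp8a.1-high endothelial cells (1.01 to 13.5%). These are shares of cells sorted for EGFP driven by dab2, and the member cells were low in GFP RNA, so they are not shares of tail endothelium. The part of the sort gate in them was not tested. Depth was close to that of the cells they are set against, the other 335 aqp8a.1-high endothelial cells of the same library. Member cells had a median of 7645 UMIs and 357337 in all, and the other aqp8a.1-high cells a median of 7854 and 2673306 in all. The comparison cells consist of 200 esm1-low cells, called aorta-like, and 135 esm1-high cells, called tip-like.

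The 3 selecting genes did not contribute equally. cxcr4b gave 348 UMIs, 77.7% of the 3-gene sum, and was present in 46 of 48 cells. gpm6aa gave 78 UMIs in 32 cells and igsf5b 22 UMIs in 13 cells. Reaching the threshold on a single gene was possible for 38 cells with cxcr4b, for 5 with gpm6aa and for 3 with igsf5b. All 3 genes were found together in 9 cells, and gpm6aa with cxcr4b in 30. The name by gpm6aa therefore fits a majority of the cells and not all: 16 of the 48 had no gpm6aa UMI. Selection rested on few molecules, with a fewest of 2 and a median of 7.5 UMIs of the 3 genes per cell, and a single cell held 36 cxcr4b UMIs. Just inside the 5 per 10000 threshold the nearest member had 5.19, and just outside it the nearest cell had 4.87, with 5 cells between 5 and 6 and 11 cells between 4 and 5. The nearest values inside and outside were 81.5 and 78.5 for aqp8a.1, and 9.79 and 10.96 for esm1.

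**Figure D1:**
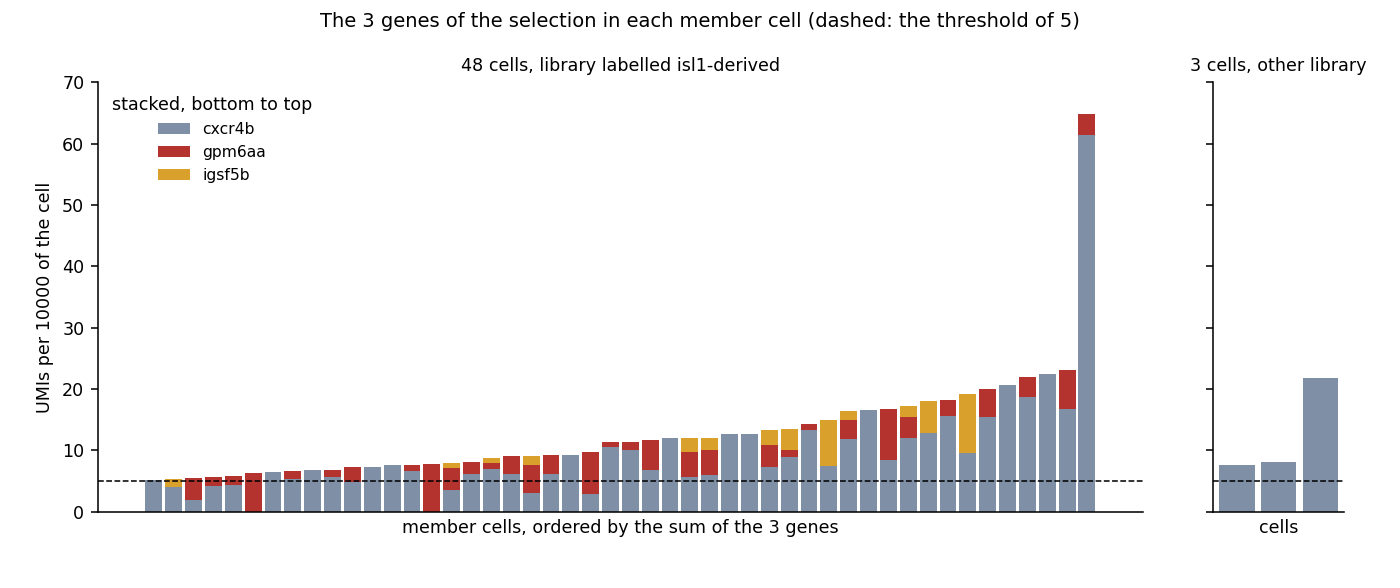
UMIs per 10000 of cxcr4b, gpm6aa and igsf5b, stacked, in each of the 48 member cells of the library labelled isl1-derived, with the 3-gene threshold of 5 as a dashed line. cxcr4b forms more than 50% of the bar in 37 of the 48 cells, while gpm6aa is present in 32 cells and igsf5b in 13.

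The rule selects member cells on gpm6aa, cxcr4b and igsf5b and keeps aorta-like cells under the threshold of their sum. The levels and shares of these 3 genes are therefore a description. gpm6aa was the most concentrated of them. Member cells held 218 CPM of gpm6aa (173 to 272), against 7.01 CPM in aorta-like, 13.6 CPM in tip-like, 0.348 CPM in venous and 0.314 CPM in blood progenitor cells. The 48 cells carried 60% of all endothelial gpm6aa UMIs, 78 of 130, with 3.37% of the endothelial UMIs, and 11 of the 12 endothelial cells with 3 or more gpm6aa UMIs were members. cxcr4b was spread more widely: 974 CPM in member cells, against 69.4 CPM in aorta-like, 405 CPM in tip-like, 14.3 CPM in venous and 162 CPM in blood progenitor cells. igsf5b reached 61.6 CPM in member cells, against 10.2 CPM in aorta-like and 21.7 CPM in tip-like cells. aqp8a.1 itself was nearly level, at 18204 CPM in member cells and 17768 CPM in the other aqp8a.1-high cells. esm1, an endothelial proteoglycan gene of sprouting tip cells, stood at 123 CPM in member cells, 113 CPM in aorta-like cells and 3966 CPM in tip-like cells.

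efnb2a and cobll1b are the markers of these cells beyond the rule. They were named with earlier results of these data known, so their higher levels in member cells are a description. efnb2a encodes the arterial ligand ephrin-B2, and ranged from 0 through a median of 3.34 to 17.7 UMIs per 10000 in single member cells, against 0, 1.65 and 31.2 in the other aqp8a.1-high cells. Single cells overlapped across the whole range, and the difference lay in the middle of the distribution. Summed, efnb2a stood at 465 CPM in member cells (397 to 541) and at 235 CPM in the other aqp8a.1-high cells, a ratio of 1.97 (1.65 to 2.35). In the 16 member cells without a gpm6aa UMI, a split chosen after seeing the data, efnb2a stood at 266 CPM and the ratio to the same comparison cells was 1.13 (0.738 to 1.66), an interval that includes 1. Aorta-like cells with 233 CPM and tip-like cells with 238 CPM were alike, and venous cells held 25.8 CPM and blood progenitor cells 10.6 CPM. At least 1 efnb2a UMI was found in 89.6% of member cells, 67.2% of the other aqp8a.1-high cells and 19.5% of blood progenitor cells, whose median depth is 26368.5 UMIs. After thinning each cell to 2000 UMIs, which left out 9 comparison cells and 0 members, these shares were 54.2%, 36.5% and 2.93%.

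cobll1b, a cordon-bleu-like gene whose family regulates actin, was sparse. It ranged from 0 to 6.07 UMIs per 10000 in member cells and from 0 to 5.13 in the other aqp8a.1-high cells, with a median of 0 in both. Its 20 UMIs in member cells gave 56.0 CPM (34.2 to 86.4), against 14.6 CPM in the other aqp8a.1-high cells, a ratio of 3.84 (2.12 to 6.74). A cobll1b UMI was present in 27.1% of member cells and 7.16% of the other aqp8a.1-high cells, against 1.46% of blood progenitor cells. After thinning, these shares were 8.33%, 2.45% and 0.418%. The ratio was 4.88 over aorta-like cells and 2.94 over tip-like cells.

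**Figure D2:**
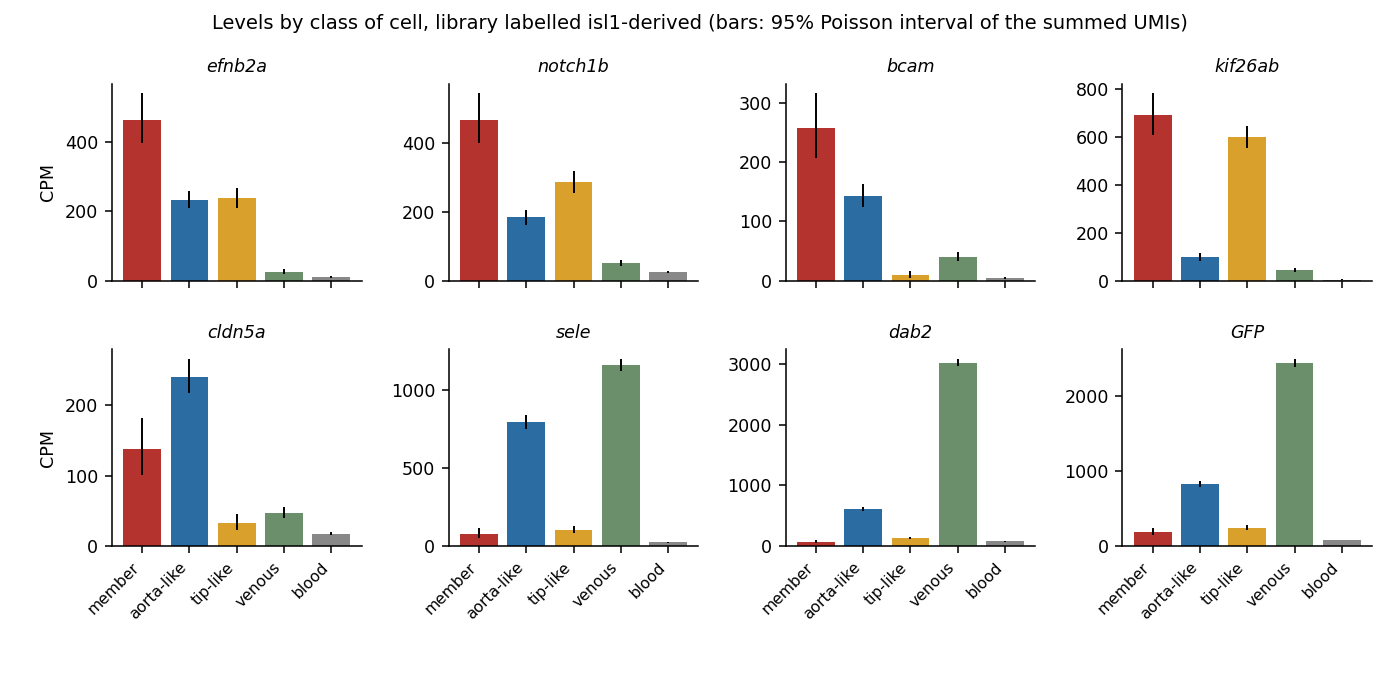
Summed level in CPM, with exact Poisson intervals, of 8 genes in member, aorta-like, tip-like, venous and blood progenitor cells of the library labelled isl1-derived. efnb2a and notch1b are highest in member cells, bcam is high in member and aorta-like cells, kif26ab in member and tip-like cells, and dab2 and GFP are highest in venous cells.

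Across the transcriptome, 3780 genes besides the rule genes had at least 100 UMIs in member and other aqp8a.1-high cells together. Of these, 76 reached a ratio of 2 in member cells (2.01%) and 179 stood at 0.5 or below (4.74%). Counting intervals lay above 1 for all 76 of the higher genes and below 1 for 172 of the lower genes (4.55%). The median log2 ratio over all measured genes was −0.03. Over aorta-like cells alone, 83 of 2508 measured genes reached 2 (3.31%) and 120 stood at or below 0.5 (4.78%). Over tip-like cells alone, 78 of 2038 reached 2 (3.83%) and 72 stood at or below 0.5 (3.53%). Of the 76 higher genes, 39 reached 2 over both classes, and of the 179 lower genes, 103 stood at or below 0.5 under both. Since the cells were chosen by measured RNA, a ratio here describes the chosen cells.

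The 15 genes with the counting bound furthest above 1 include several transcriptional regulators. ebf1b, an early B-cell factor gene, ranged from 0 through a median of 9.66 to 54.2 per 10000 in member cells, against 0, 2.43 and 62.4 in the other aqp8a.1-high cells. It was found in 95.8% of member cells and its sum was 1237 CPM, against 413 CPM, a ratio of 2.995 (2.68 to 3.35). Single cells of both groups reached similar peaks, while the typical member cell was higher. pknox2, a TALE homeodomain gene, had 305 CPM in member cells and 90.5 CPM in the other aqp8a.1-high cells, a ratio of 3.37 (2.66 to 4.24). lhx6, a LIM homeodomain gene, had 182 CPM and 58.0 CPM in the same order, a ratio of 3.14 (2.31 to 4.22). ahr1b, an aryl hydrocarbon receptor gene, had 109 CPM in member cells and 29.9 CPM in the other aqp8a.1-high cells, a ratio of 3.65 (2.42 to 5.41). It leaned towards the tip-like side, with 16.6 CPM in aorta-like and 48.9 CPM in tip-like cells. atf3, a stress-induced transcription factor gene, had 445 CPM in member cells and 148 CPM in the other aqp8a.1-high cells, a ratio of 3.01 (2.49 to 3.63). 1 member cell held 50 of its UMIs, the ratio without that cell was 2.14, and venous cells held more atf3 than member cells did, at 912 CPM.

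A second group of these genes acts at the cytoskeleton, the membrane or cell contacts. tmsb1 encodes a thymosin beta, which binds actin monomers, and was present in 22 of 48 member cells, with a highest cell at 32.9 per 10000 and a median of 0. In the other aqp8a.1-high cells tmsb1 was found in 62 of 335, with a highest cell at 40.2. Its sum was 509 CPM in member cells and 83.0 CPM in the other aqp8a.1-high cells, a ratio of 6.13 (5.01 to 7.50), with 6.01 over aorta-like and 6.32 over tip-like cells. A UMI of this gene was thus seen in a minority of member cells, and it has the largest ratio among the leading genes that no single cell decides. adap2, an ArfGAP gene, reached 4.23 (2.84 to 6.23), with 120.3 CPM in member cells and 28.4 CPM in the other aqp8a.1-high cells. kaznb, a gene of the junction-associated kazrin family, reached 3.89 (2.58 to 5.77), and cx39.4, a connexin gene, 3.27 (2.22 to 4.75). bcam, a laminin-binding adhesion gene, had 257 CPM in member cells, 143 CPM in aorta-like cells and 9.06 CPM in tip-like cells, so its ratio was 1.80 over aorta-like and 28.4 over tip-like cells.

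The remaining leading genes have metabolic, signalling or other roles. oaz2a, an ornithine decarboxylase antizyme gene that limits polyamine synthesis, ranged from 0 through a median of 8.76 to 26.5 per 10000 in member cells, against 0, 1.83 and 28.2 in the other aqp8a.1-high cells. Its sum was 893 CPM in member cells and 340.0 CPM in the other aqp8a.1-high cells, a ratio of 2.63 (2.30 to 2.99). The shift again lay in the typical cell and not in the peaks. ca16b, a gene named for carbonic anhydrase, was found in 79.2% of member cells and 37.0% of the other aqp8a.1-high cells, at 279.8 CPM and 75.6 CPM, a ratio of 3.70 (2.88 to 4.73). phlda2, a gene with a pleckstrin-homology-like domain, had 501 CPM in member cells and 120.1 CPM in the other aqp8a.1-high cells, a ratio of 4.17 (3.46 to 5.02), or 3.13 without the member cell that held 49 of its UMIs. clic2, an intracellular chloride channel gene, reached 3.02, with 209.9 CPM in member cells and 69.6 CPM in the other aqp8a.1-high cells. pyyb, a peptide YY gene, is in the list through 1 cell that held 60 of its 61 UMIs: the ratio of 10.4 became 0.176 without it. Of the 15 genes, 14 reached 2 over aorta-like cells, against 3.31% of measured genes, and 15 over tip-like cells, against 3.83%. Without their own leading member cell, 14 reached 2 over all other aqp8a.1-high cells. The 15 were ranked on these same cells, so the counts are a description.

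**Figure D3:**
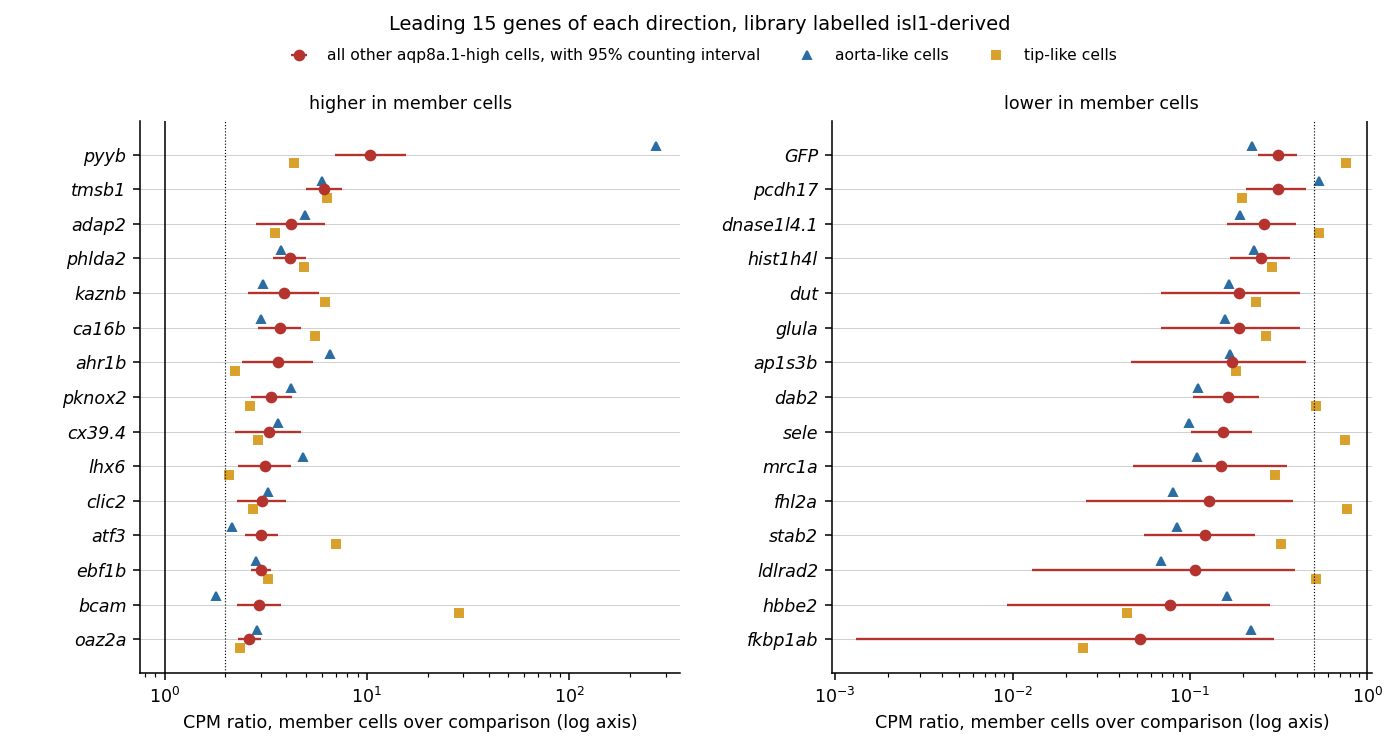
CPM ratio on a log axis of the 15 leading higher and 15 leading lower genes in member cells of the library labelled isl1-derived. Points with bars are over all other aqp8a.1-high cells with the 95% counting interval, triangles over aorta-like cells and squares over tip-like cells. The lower genes lie further below aorta-like than tip-like cells for sele, dab2 and GFP, and the reverse for fkbp1ab.

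Genes of the caudal vein plexus and of endocytosis lead the lower genes. dab2 encodes a clathrin adaptor and its regulatory sequence drives the EGFP of the sort. Single member cells held from 0 through a median of 0 to 4.80 dab2 UMIs per 10000, against 0, 2.07 and 33.1 in the other aqp8a.1-high cells. Every member cell was thus in the low part of the comparison cells' range. dab2 summed to 67.2 CPM in member cells (43.0 to 99.9), 608 CPM in aorta-like, 131 CPM in tip-like and 3027 CPM in venous cells, a ratio of 0.163 (0.104 to 0.244) to all other aqp8a.1-high cells. The reporter followed the same order. GFP ranged from 0 through 1.33 to 9.23 per 10000 in member cells and from 0 through 3.72 to 38.8 in the other aqp8a.1-high cells, and a GFP UMI was found in 30 of 48 member cells. GFP stood at 185 CPM in member cells (143 to 235), 828 CPM in aorta-like, 245 CPM in tip-like, 2442 CPM in venous and 81.4 CPM in blood progenitor cells. TagRFP had 0 UMIs in member cells, which allows up to 8.40 CPM, against 12.7 CPM in the other aqp8a.1-high cells. isl1 had 2 UMIs, both in 1 member cell.

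The adhesion gene sele, which encodes E-selectin, was found in 18.8% of member cells and 51.0% of the other aqp8a.1-high cells. Its levels ran from 0 to 21.5 per 10000 in member cells and from 0 to 62.4 in the other aqp8a.1-high cells, and 1 member cell held 14 of its 28 UMIs. Summed, sele was 78.4 CPM in member cells, 795 CPM in aorta-like and 104 CPM in tip-like cells, so it separated member cells from the aorta-like cells, at a ratio of 0.0986, more than from the tip-like cells, at 0.752. The scavenger receptor genes stab2 and mrc1a had ratios of 0.122 and 0.149 to all other aqp8a.1-high cells, with 25.2 CPM and 14.0 CPM in member cells. In venous cells, which were chosen on this pair of genes, they stood at 3468 CPM and 1688 CPM. glula, the glutamine synthetase gene, had 16.8 CPM in member cells, 88.7 CPM in the other aqp8a.1-high cells and 1228 CPM in venous cells.

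Other leading lower genes are outside the venous list. fkbp1ab, an FK506-binding protein gene, had 1 UMI in member cells, 2.80 CPM, against 12.7 CPM in aorta-like and 111 CPM in tip-like cells. pcdh17, a protocadherin gene, had 81.2 CPM in member cells, 152 CPM in aorta-like and 411 CPM in tip-like cells. Both were thus highest on the tip-like side. dut, the dUTP pyrophosphatase gene, had 16.8 CPM in member cells and 88.7 CPM in the other aqp8a.1-high cells. hist1h4l, a histone H4 gene whose symbol 24 annotated features share, had 81.2 CPM and 321 CPM in the same order. The embryonic beta globin gene hbbe2 had 2 UMIs in member cells and a ratio of 0.0775. The erythroid list that holds hbbe2 was near level, at 171 CPM in member cells and 179 CPM in the other aqp8a.1-high cells. Of the 15 leading lower genes, 14 stood at or below 0.5 against aorta-like cells (4.78% of measured genes) and 9 against tip-like cells (3.53%). The 15 were ranked on these same cells, so the counts are a description.

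Arterial genes were mostly higher in member cells. The list was made with earlier results of these data known and holds the marker efnb2a, so its counts and median are a description. Of 23 measured arterial genes, 12 reached a ratio of 1.5, which 8.62% of all measured genes did, and 1 stood at or below the inverse of 1.5, which 13.3% of all measured genes did. The list's median log2 ratio was 0.59, against −0.03 over all measured genes, with 0.61 over aorta-like and 0.72 over tip-like cells. The ephrin-B2 paralog efnb2b ranged from 0 through a median of 4.81 to 34.8 per 10000 in member cells, and from 0 through 1.83 to 10.4 in the other aqp8a.1-high cells. Its sum was 518 CPM in member cells and 217 CPM in the other aqp8a.1-high cells, a ratio of 2.39 (2.01 to 2.82). hey1, a Notch-induced repressor gene, had 157 CPM in member cells and 54.2 CPM in the other aqp8a.1-high cells, a ratio of 2.89 (2.08 to 3.96). mecom, a zinc finger transcription factor gene, reached 2.30 with 67.2 CPM against 29.2 CPM. rgs5b, a regulator of G protein signalling, stood at 375 CPM in member cells and 193 CPM in the other aqp8a.1-high cells, a ratio of 1.94 (1.59 to 2.35).

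Not every arterial gene followed. hey2, the gene of the aortic regulator known in zebrafish as gridlock, had 67.2 CPM in member cells, 158 CPM in aorta-like and 62.5 CPM in tip-like cells. The tight junction gene cldn5a had 137 CPM in member cells, 240.2 CPM in aorta-like and 32.6 CPM in tip-like cells, and the connexin gene gja5a had 78.4 CPM, 130.0 CPM and 48.0 CPM in the same order. Member cells thus lay between both comparison classes in cldn5a and gja5a. gpm6ab, the paralog of gpm6aa, was at the aorta-like level, with 221 CPM in member cells, 227 CPM in aorta-like cells and 20.8 CPM in tip-like cells. cxcr4a, the paralog of cxcr4b, lay in between too, with 353 CPM in member cells, 124 CPM in aorta-like and 598 CPM in tip-like cells. cxcl12a, which encodes a ligand of these receptors, had 213 CPM in member cells and 108 CPM in the other aqp8a.1-high cells, a ratio of 1.97 (1.51 to 2.55).

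Within the Notch pathway, 4 of 7 measured receptors and ligands reached 1.5, as 8.62% of all measured genes did, and 0 stood at or below its inverse, as 13.3% of all did. The ligand gene jag2b had 349.8 CPM in member cells and 157 CPM in the other aqp8a.1-high cells, a ratio of 2.22 (1.80 to 2.72). The receptor gene notch1b had 467 CPM and 226 CPM in the same order, a ratio of 2.07 (1.73 to 2.46), notch3 had a ratio of 1.96 and the ligand gene dlc one of 1.51. dll4, the main Notch ligand of arteries and tip cells, was level at 417 CPM in member cells and 401 CPM in the other aqp8a.1-high cells, with aorta-like cells at 267 CPM and tip-like cells at 593 CPM on either side. Of 11 measured Notch targets, 4 reached 1.5 (hey1, her12, her2 and nrarpb) and 1, hey2, stood at or below its inverse. The nrarpb interval (0.981 to 2.27) includes 1. A her2 UMI was found in 8.33% of member cells and 9.25% of the other aqp8a.1-high cells, so few cells carry its sum. her12, a hairy-related repressor gene, had 319 CPM in member cells and 138 CPM in the other aqp8a.1-high cells, and her6, another, had 554 CPM and 704 CPM. The median log2 ratio of the targets was 1.08 over aorta-like and 0.12 over tip-like cells.

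Venous and caudal plexus genes were mostly lower, with a median log2 ratio of −1.16. Of 12 measured genes, 7 stood at or below the inverse of 1.5, as 13.3% of all measured genes did. All 7 also stood at or below 0.5, as 4.74% of all measured genes did. The transcription factor gene nr2f2 had 3 UMIs in member cells, 8.40 CPM, against 38.2 CPM in the other aqp8a.1-high cells. The lymphatic and venous VEGF receptor gene flt4 had 115 CPM in member cells and 260.4 CPM in the other aqp8a.1-high cells, and the scavenger receptor gene stab1 had 69.96 CPM and 159 CPM. nr2f1b, tfec, vcam1b and clec3ba had 0 UMIs in member cells. fabp11a, a fatty acid binding protein gene, was the exception, with a ratio of 1.69 (1.64 to 1.73), and it was found in all 48 member cells. The EphB4 genes ephb4a and ephb4b had ratios of 1.27 (0.914 to 1.73) and 1.19 (0.724 to 1.88), whose intervals include 1. In the lymphatic list prox1a, the gene of the defining lymphatic transcription factor, had 0 UMIs in member cells and was likewise not measured. The growth factor gene vegfc, also listed there, had 437 CPM in member cells, 443 CPM in aorta-like and 80.6 CPM in tip-like cells.

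Genes of angiogenic tip cells split. Relative to aorta-like cells the list's median log2 ratio was 1.07, and relative to tip-like cells −0.63. kif26ab, a kinesin-family gene, had 688 CPM in member cells, 96.8 CPM in aorta-like and 597 CPM in tip-like cells, so it stood 7.11 times the aorta-like and 1.15 times the tip-like level. pdgfba, a growth factor that recruits mural cells, had a ratio of 1.75. In contrast, the apelin gene apln had 159.5 CPM in member cells, 111 CPM in aorta-like and 864 CPM in tip-like cells, and adma, an adrenomedullin gene, had 19.6 CPM, 24.8 CPM and 87.0 CPM in the same order. The zinc finger genes zic2a and zic2b lay between both classes, with ratios of 2.82 and 4.07 over aorta-like cells and 0.753 and 0.578 over tip-like cells. Summed over member cells, kif26ab was thus near its tip-like level and apln nearer its aorta-like level. This is not a statement about single cells: apln was found in 25% of member cells, and single cells held 18 and 12 of its 57 UMIs.

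**Figure D4:**
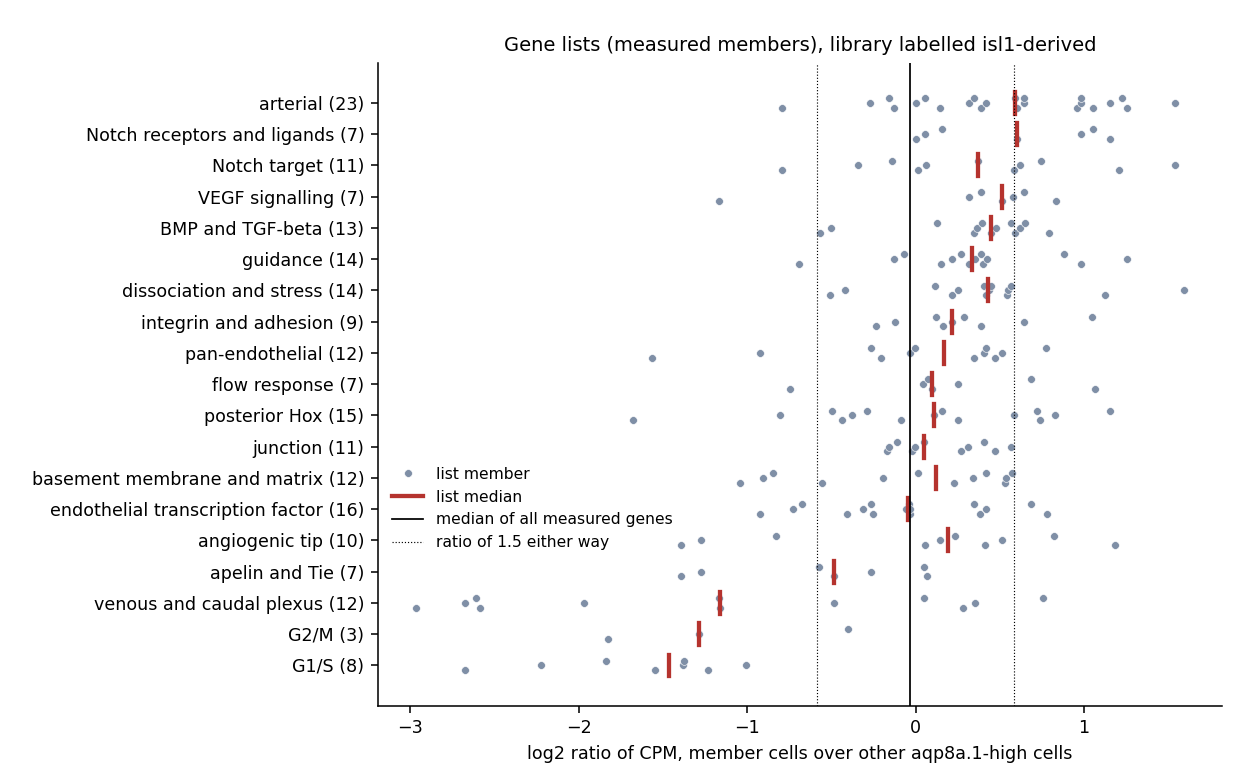
Log2 CPM ratio of each measured gene, member cells over other aqp8a.1-high cells of the library labelled isl1-derived, in 19 gene lists, with each list's median. The arterial list has a median of 0.59, the venous and caudal plexus list −1.16 and the G1/S list −1.46, while all measured genes have −0.03.

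In the VEGF list the receptor genes kdr and flt1 reached 1.5, as 8.62% of all measured genes did. kdr had 165 CPM in member cells and 93.1 CPM in the other aqp8a.1-high cells, and flt1 1164 CPM and 746 CPM. flt4 stood below the inverse of 1.5, as 13.3% of all measured genes did. The list's median was 0.51 over 7 measured genes. The BMP and TGF-beta list had a median of 0.45, with 0.13 over aorta-like and 0.85 over tip-like cells. In it 4 of 13 genes were at 1.5 or above, against 8.62% of all measured genes. They were the receptor genes bmpr2a, bmpr2b and acvrl1 and the pseudoreceptor gene bambia. Below the inverse of 1.5 was smad6a, at 0.641 (0.285 to 1.26), an interval that includes 1. Among 14 measured guidance genes, the marker efnb2a, efnb2b and the semaphorin gene sema7a reached 1.5, against 8.62% of all measured genes. The Eph receptor gene epha2a, at 0.607, was the 1 gene below the inverse of 1.5, against 13.3% of all measured genes. The flow-responsive transcription factor genes klf2a and klf2b had ratios of 2.09 and 1.59, with 367 CPM of klf2a in member cells and 175 CPM in the other aqp8a.1-high cells, while the list's median was 0.10 over 7 measured genes.

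podxl encodes podocalyxin, a sialomucin of the luminal surface, and was found in all 48 member cells. Its sum was 2253 CPM in member cells, 953 CPM in aorta-like and 1282 CPM in tip-like cells. Of 11 measured junction genes 0 reached 1.5 or its inverse, as 8.62% and 13.3% of all measured genes did. The median log2 ratio was 0.05. Of 12 matrix genes 0 reached 1.5 and 3 stood at or below its inverse, against the same 8.62% and 13.3%. Among the 3 was col18a1a, with 148 CPM in member cells, 423 CPM in aorta-like and 76.1 CPM in tip-like cells. Of 16 endothelial transcription factor genes, mef2ca and foxc1b reached 1.5, and etv2, hhex and foxc1a stood at or below its inverse. These 2 and 3 genes are near the 8.62% and 13.3% of all measured genes, and the intervals of foxc1b (0.960 to 2.49) and foxc1a (0.266 to 1.17) include 1. etv2, the early endothelial master regulator gene, had 333 CPM in member cells and 635 CPM in the other aqp8a.1-high cells. ecscr, an endothelial surface regulator gene, was the lowest of the pan-endothelial list, with 83.95 CPM in member cells and 252 CPM in the other aqp8a.1-high cells.

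Of 15 measured posterior Hox genes, 4 reached 1.5, against 8.62% of all measured genes, and 2 stood at or below its inverse, a share equal to the 13.3% of all measured genes. hoxc9a had 109 CPM in member cells and 49.4 CPM in the other aqp8a.1-high cells, a ratio of 2.21 (1.51 to 3.18). hoxb8a, hoxb9a and hoxa9b had ratios of 1.76, 1.66 and 1.62, and the hoxa9b interval (0.929 to 2.67) includes 1. At the other end hoxc10a stood at 0.554 and hoxc12b at 0.280 (0.0748 to 0.737). hoxb7a and hoxa10b had ratios of 0.742 (0.373 to 1.34) and 1.05 (0.593 to 1.75), whose intervals include 1. The list's median was 0.11.

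Genes of DNA replication were low. All 8 measured G1/S genes stood at or below 0.5, as 4.74% of all measured genes did, with a median log2 ratio of −1.46. The replication clamp gene pcna had 61.6 CPM in member cells and 148 CPM in the other aqp8a.1-high cells, and rrm2, of ribonucleotide reductase, had 14.0 CPM and 71.8 CPM. The summed list was 221 CPM in member cells (175 to 276) and 631 CPM in the other aqp8a.1-high cells (601 to 662). Cells with at least 10 per 10000 of this list were 2 of 48 members (4.17%, 0.509 to 14.3%) and 45 of 335 other aqp8a.1-high cells (13.4%, 9.97 to 17.6%). At an equal depth of 2000 UMIs they were 5 of 48 (10.4%, 3.47 to 22.7%) and 67 of 326 (20.6%, 16.3 to 25.4%), intervals that overlap. Median per-cell sums were 1.57 per 10000 in member cells and 1.77 in the other aqp8a.1-high cells, so the difference in the sum lay in the few rich cells. Of the 3 measured G2/M genes, ube2c and mki67 stood at or below 0.5, against the same 4.74% of all measured genes. Cells rich in G1/S genes were then left out of both sides, an alternative chosen after seeing the data. Of the 3315 genes measured in this setting, 62 reached 2 and 131 stood at or below 0.5. In it hist1h4l had a ratio of 0.630 and dut 0.398.

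Markers of other cell types were measured in the same sums. Neuronal markers, listed because gpm6aa is known from neurons, summed to 157 CPM in member cells and 174 CPM in the other aqp8a.1-high cells, with 14 of 19 at 0 in member cells, among them elavl3, elavl4, snap25a and gap43. Neural crest and glial markers summed to 5.597 CPM and 3.74 CPM, with 9 of 11 at 0, and muscle markers to 44.8 CPM and 50.5 CPM, with 10 of 14 at 0. Mural and fibroblast markers summed to 19.6 CPM in member cells and 56.5 CPM in the other aqp8a.1-high cells, with 12 of 18 at 0, pdgfrb, acta2 and tagln among them. Of the myeloid markers 9 of 12 present in the files were at 0, mpx and mpeg1.1 among them, and the list's 915 CPM in member cells and 711 CPM in the other aqp8a.1-high cells were mostly srgn, a proteoglycan gene that is not restricted to myeloid cells. Erythroid markers summed to 171 CPM and 179 CPM, with gata1a and alas2 at 0. The epidermal list summed to 11966 CPM in member cells and 9993 CPM in the other aqp8a.1-high cells, with cdh1 and tp63 at 0. These sums were mostly the keratin genes krt8 and krt18a.1, at 4637 CPM and 7284 CPM in member cells. In single cells the neuronal sum ran from 0 to 9.97 per 10000 in member cells and from 0 to 12.3 in the other aqp8a.1-high cells, the mural sum from 0 to 2.63 and from 0 to 9.75, and the myeloid sum from 2.28 to 20.5 and from 0 to 35.2. Member cells thus lay within the range of the other aqp8a.1-high cells in these 3 lists. Doublet calling with Scrublet marked 6 barcodes in the library labelled isl1-derived and 0 of them were members. Mitochondrial transcripts took a median of 1.27% of UMIs in member cells and 1.14% in the other aqp8a.1-high cells. The 14 measured immediate-early and stress genes had a median log2 ratio of 0.43. Of these, atf3 and dusp1 reached 1.5, against 8.62% of all measured genes, while hspa5 and fosb had ratios of 0.742 and 0.684. Their part in the other differences was not tested.

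The 48 cells were also split by gpm6aa itself. gpm6aa is a selecting gene, so a cell without it was chosen through cxcr4b or igsf5b, and the split is a description. Of 485 genes with at least 100 UMIs in the 48 cells, 1.86% had a ratio of 2 or more in cells with gpm6aa over cells without it, and 0.412% one of 0.5 or less. The genes given here were named after their values in this split were seen. Of them, notch3, sema7a, flt4, apln, pcdh17, adap2, ahr1b, pyyb, dab2 and GFP had fewer than 100 UMIs. The 32 cells with one had a median of 7895 UMIs and the 16 without one 5965.5 UMIs, so depth moves with this split, and its part was not tested. efnb2a stood at 544 CPM in cells with gpm6aa and 266 CPM in cells without it, a ratio of 2.05 (1.35 to 3.22). The same direction was seen for the receptor gene notch3, with 180 CPM and 59.0 CPM, a ratio of 3.05 (1.299 to 8.74), and for sema7a, with 289 CPM and 88.5 CPM, a ratio of 3.27 (1.63 to 7.43). cxcr4a had 426 CPM and 167 CPM, a ratio of 2.55 (1.52 to 4.54), oaz2a a ratio of 2.42 (1.76 to 3.40), and vegfc one of 1.90 (1.25 to 2.99). In the opposite direction, flt4 had 46.9 CPM in cells with gpm6aa and 285 CPM in cells without it, a ratio of 0.165 (0.0765 to 0.333), and apln had 82.1 CPM and 354 CPM, a ratio of 0.232 (0.129 to 0.408). pcdh17 had 5 UMIs and 24 UMIs, a ratio of 0.0829 (0.0247 to 0.222). Cells without gpm6aa therefore held most of the flt4, apln and pcdh17 RNA of the 48 cells. A few cells carry these sums: 18 of the 21 apln UMIs on the gpm6aa side came from 1 cell, and 13 of the 24 pcdh17 UMIs on the other side from 1 cell. Among the leading higher genes, adap2 had 41 UMIs and 2 UMIs, a ratio of 8.15 (2.12 to 69.6). atf3 had a ratio of 2.93 (1.81 to 5.01) and phlda2 one of 1.70 (1.16 to 2.54). Single cells with gpm6aa held 50 of the atf3 UMIs and 49 of the phlda2 UMIs. ebf1b stood at 1.29 (1.03 to 1.63) and tmsb1 at 1.05 (0.753 to 1.49). Below 1 were ahr1b, at 0.795 (0.394 to 1.69), and pyyb, through the cell that held 60 of its UMIs. podxl, outside the leading genes, was near level at 1.06 (0.904 to 1.24). dab2 and GFP had ratios of 0.557 (0.230 to 1.40) and 0.744 (0.438 to 1.29).

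Levels were also described along the selecting sum, whose bins are made from the values the rule used. The 248 esm1-low aqp8a.1-high cells were put in 5 bins of the 3-gene sum: 0, above 0 to 2.5, 2.5 to 5, 5 to 10, and 10 or more per 10000, with 121, 51, 28, 23 and 25 cells. In that order tmsb1 stood at 54.1, 82.0, 229, 337 and 674 CPM, and pknox2 at 52.97, 72.9, 161, 263 and 345 CPM. In the same order sele stood at 899, 758, 399, 137 and 21.9 CPM, dab2 at 732, 531, 219, 74.3 and 60.3 CPM, and GFP at 917, 842, 394, 263 and 110 CPM. The cells just under the threshold were thus already displaced from those with none of the 3 genes in these 5 genes. Some levels also differed across the threshold. dab2 had 219 CPM just below it (160 to 293) and 74.3 CPM just above it (39.6 to 127), and sele intervals were 318 to 496 CPM and 87.9 to 204 CPM in the same order. kif26ab ran from 60.5 through 86.5, 282 and 594 to 779 CPM, and podxl from 883 through 824, 1539 and 1835 to 2654 CPM. efnb2a was higher in the upper bins with no even slope, at 197, 291, 273, 406 and 521 CPM. Of the 15 leading higher genes 5 increased in every step, as 5 of the 15 leading lower genes decreased in every step. The share of all measured genes that did so was not counted, so these counts are a description only. The upper bins of these genes hold the cells from which the lists were drawn.

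**Figure D5:**
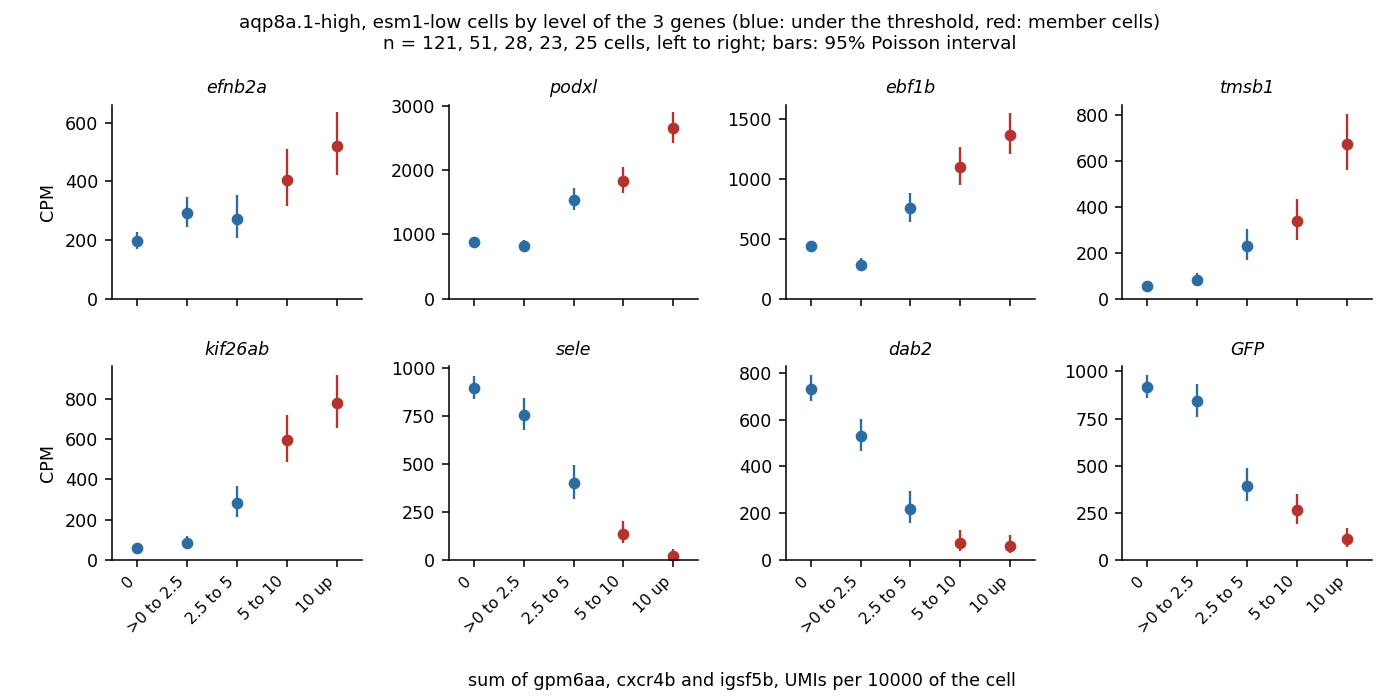
Summed level in CPM with exact Poisson intervals of 8 genes in 5 bins of the gpm6aa, cxcr4b and igsf5b sum among 248 esm1-low aqp8a.1-high cells of the library labelled isl1-derived. tmsb1, kif26ab and podxl are higher and sele, dab2 and GFP lower from the bin of 2.5 to 5 per 10000 on, below the threshold of 5.

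The same 3-gene sum marked cells that the rule leaves out. Of 145 endothelial cells at or above 5 per 10000, 48 were members, 54 were under the aqp8a.1 threshold and 43 were tip-like. Among esm1-low endothelial cells under the aqp8a.1 threshold, 28 cells at or above 5 were set against 787 below it. efnb2a stood at 586 CPM in the 28 cells and 59.8 CPM in the 787, a ratio of 9.80, and tmsb1 at 219 CPM and 15.22 CPM, a ratio of 14.4. Of the 15 leading higher genes 11 reached 2 there, as 7.85% of 6561 measured genes did, and of the 15 leading lower genes 12 stood at or below 0.5, as 18.7% of the measured genes did. The exceptions had other patterns: atf3 stood at 0.302 and pcdh17 at 2.61. The 787 cells include the venous cells. Among tip-like cells, 43 at or above 5 were set against 92 below it. There efnb2a stood at 352 CPM and 195 CPM, ebf1b at 590 CPM and 301 CPM, and dab2 at 52.1 CPM and 162 CPM. Of the 15 higher genes 4 reached 2, against 0.703% of 1565 measured genes, and of the 15 lower genes 4 stood at or below 0.5, against 0.447%. These cells were not used to choose the genes as higher or lower members, though the tip-like cells stood on the comparison side.

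With the 12 rule genes removed, member cells still lay near each other in the expression space of the 383 aqp8a.1-high cells. Over 15 nearest neighbours in 20 components of 1000 variable genes, 36.9% of a member's neighbours were members on average, and members were 12.5% of the cells. The same share was 8.57% for aorta-like and 9.23% for tip-like cells. Most neighbours were members for 18 of the 48 cells. Aorta-like cells made up 35.1% of members' neighbours and 52.2% of the cells. Tip-like cells made up 27.9% of members' neighbours and 35.2% of the cells. A majority of the members therefore had mostly other aqp8a.1-high cells around them, so the cells do not form a closed cluster by this measure.

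In the library labelled other, the 3 member cells held 16808 UMIs in all, and passed on cxcr4b alone, with 3, 7 and 9 UMIs. gpm6aa had 0 UMIs in them, which allows up to 178 CPM, so the 218 CPM of the library labelled isl1-derived is close to what this depth could miss, and 9 gpm6aa UMIs were found among all 573 endothelial cells of the library. efnb2a was found in all 3, at 1.15, 7.60 and 12.1 per 10000. Its sum was 535 CPM in the 3 cells and 267 CPM in the other 59 aqp8a.1-high cells, a ratio of 2.003 (0.893 to 3.94), whose interval includes 1. oaz2a was found in all 3 as well, at 1309 CPM. Of the 15 leading higher genes, 11 had a UMI in the 3 cells and 9 were above the level of the 59, as 46.1% of 579 measured genes were. Of the 15 leading lower genes, 9 had a UMI in the 3 cells and 14 were below the level of the 59, as 53.9% of the measured genes were. A gene with 0 UMIs in the 3 cells counts as below. The measured genes had at least 100 UMIs in this library, a minimum not set for the 15 genes of either direction. The shares are thus not alike, and 3 cells cannot decide whether the pattern recurs. ebf1b had a ratio of 0.859 (0.367 to 1.72) and ldlrad2, a gene named for a low-density lipoprotein receptor domain, one of 3.56 (1.09 to 9.13), both on the side opposite to the library labelled isl1-derived.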

How the data were processed

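The authors deposited unnormalized UMI counts per gene and cell barcode for 2 droplet libraries of sorted cells, made with Cell Ranger 5.0.0 on GRCz11 per the submitters' processing notes, and with version 5.0.1 per the file headers. Members, gene lists and thresholds were chosen with earlier results of these data known. Barcodes needed 500 detected genes and a mitochondrial share below 10% of UMIs, which kept 2030 of 2072 and 709 of 730. Counts were summed over the cells of a class, since cells of 1 library are not replicates. Ratios of CPM have exact conditional binomial 95% intervals, levels exact Poisson and shares exact Clopper-Pearson intervals. They cover counting error only, and a count of 0 was given a limit of 3 counts. Log2 ratios used a pseudocount of 0.5. Features that share a symbol were summed. 3′ counts were not compared between genes, except for the parts of sums over several genes, as in the rule and the lists. Genes were named by this rule: the rule genes, the 15 genes per direction whose interval bound was furthest from 1 among genes with at least 100 UMIs (without clone-named, mitochondrial and ribosomal genes), the members of each list with most UMIs or the ratio furthest from 1, and the reporters; others named were chosen after their values were seen. Venous cells had at least 20 per 10000 of stab2 and mrc1a. Doublets were called with Scrublet in scanpy 1.11.5 and kept, and TMM factors came from edgeR 4.0.16. The scripts ran in Python 3.11.15 with scipy 1.17.1 and R 4.3.3 and were tested on simulated data. Alternatives varied each threshold, the comparison cells, scaling and depth.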

Additional observations from a re-analysis of the deposited data

How the results depend on the processing

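No paired analysis was possible because each group is 1 library. Higher and lower counts below are of genes at a ratio of 2 or more and 0.5 or less. They stand against 76 and 179 of 3780 measured genes, the number measured unless another is given. Venous medians are log2 against −1.16. A 3-gene threshold of 3 per 10000 gave 105 lower genes and a venous median of −0.72. One of 10 per 10000 left 25 member cells and gave 117 higher and 335 lower genes. A threshold of 3 UMIs gave 45 and 101 and a venous median of −0.66. aqp8a.1 at 40 per 10000 gave 115 and 272 of 4888 genes. At 160 per 10000 it left 27 cells and gave 38 and 71 of 1894 genes. With esm1 under 5 per 10000 the venous median was −1.55, and under 20 it was −0.76. Against tip-like cells alone there were 72 lower genes of 2038, and the venous median was −0.58 over the 8 venous genes measured there. Over the 12 venous genes of the main comparison the median against tip-like cells was −0.84. Thinning to 2000 UMIs, which leaves fewer genes measured, gave 23 and 40 of 1021. A minimum of 30 UMIs gave 270 and 809 of 7713 genes, and one of 300 UMIs 26 and 28 of 1369.

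The library labelled other, with 3 member cells, gave 37 and 113 of 579 genes and a venous median of −1.92 over 5 genes. It put ebf1b (0.859), ldlrad2 (3.56) and the median of the stress list (−0.15) on the opposite side. The following were chosen after seeing the data. Without its rich cell pyyb had a ratio of 0.176. Members with a gpm6aa UMI gave a venous median of −1.78. Members without one gave 119 and 388 of 3521 genes, an arterial median of 0.21 and a venous median of −0.16. Where no cause is named, it was not tested. Within the library labelled isl1-derived, the arterial median lay between 0.21 and 0.69 over 22 settings, and the G1/S median between −1.79 and −0.58 over the 15 settings that gave one. Over 20 settings the ratios lay between 1.13 (members without a gpm6aa UMI) and 2.31 for efnb2a, 0.110 and 0.511 for dab2, and 5.31 and 8.51 for tmsb1. With TMM, 56 genes were higher and 208 lower. The depth of 357337 UMIs puts the limit of a gene with no count at 8.40 CPM in the library labelled isl1-derived.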

Other observations

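Among clone-named genes, left out of the gene rule and named here after their values were seen, si:ch73-335l21.4 had 2857 CPM in member cells and 981 CPM in the other aqp8a.1-high cells, a ratio of 2.91 (2.71 to 3.13), found in 77.1% and 56.4% of cells. Another, zgc:194686, had 3 UMIs in member cells, 8.40 CPM, and 208 CPM in the other aqp8a.1-high cells, a ratio of 0.0404. Also clone-named, si:dkey-35m8.1, had a ratio of 4.34 (2.86 to 6.49).

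Some lists showed little displacement. Of 12 measured glycolysis genes, pfkpa, a phosphofructokinase gene, had a ratio of 1.69 (1.09 to 2.55) and hk1, a hexokinase gene, one of 0.557 (0.218 to 1.19), and the rest lay between. The second aquaporin gene of this endothelium, aqp1a.1, had a ratio of 1.40 over aorta-like and 0.658 over tip-like cells. Of 14 measured genes of actin and polarity, tmsb1 alone reached 1.5, as 8.62% of all measured genes did. ccn2a, a YAP target gene, alone stood at or below its inverse, as 13.3% of all did. It had 22.4 CPM in member cells and 51.2 CPM in the other aqp8a.1-high cells. By count, the list was thus not set apart from all measured genes. The thymosin paralog tmsb4x, found in all member cells, had a ratio of 0.942 (0.918 to 0.967).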
